A study of Mus musculus with 42 samples.

Results

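Fatty acid uptake, intracellular fatty acid binding and triglyceride hydrolysis in the liver were described here by 8 genes, chosen by name out of the 54446 genes of the count table. Cd36, Slc27a2 and Slc27a4 act in uptake, Fabp1, Fabp2 and Fabp4 bind fatty acids in the cytosol, and Lpl and Lipc encode secreted lipases. All 8 were expressed above the filter on low counts and were among the 15574 genes tested. Bulk liver RNA was sequenced in 42 female APOE*3-Leiden mice, 1 library per mouse, 32 weeks after the start of treatment. All mice carried the human APOE*3-Leiden transgene, so that no wild-type liver was compared. The chow group (n = 10) stayed on maintenance chow as healthy reference, and the age of these mice is not stated in the sources used here. The mice of both WTD groups (n = 16 each) were 8 to 14 weeks old when they started on a Western-type diet. This diet held 15% cocoa butter, 40.5% sucrose and 1% cholesterol. It was given without drug for 3 weeks before the mice were matched into groups for the treatment period. From week 22, 0.05% sodium cholate was added. The WTD group received no drug. The WTD with atorvastatin group (n = 16) received the same diet mixed with atorvastatin, an inhibitor of HMG-CoA reductase, at 3.0 mg/kg/day and from week 5 at 4.5 mg/kg/day. The chow mice therefore differed from the other groups in the whole diet, cholate included, and mice of a group are numbered in the order of deposition.

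As background, the liver takes up free fatty acids that circulate on albumin and fatty acids that lipases release from lipoproteins. CD36 is a membrane receptor that facilitates fatty acid uptake, and the proteins of the Slc27 family (FATPs) couple uptake to activation with coenzyme A. The small FABP proteins carry fatty acids within the cell, with FABP1 as the form typical of hepatocytes, FABP2 of enterocytes and FABP4 of adipocytes, macrophages and capillary endothelium. Lipoprotein lipase (Lpl) hydrolyses triglycerides of chylomicrons and VLDL and is made chiefly in adipose tissue, muscle and macrophages, whereas hepatic lipase (Lipc) is a product of hepatocytes that acts on remnant particles and HDL.

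Promoter sequences are shown for the 3 genes that were lower in both WTD groups than in the chow group, Fabp1, Slc27a2 and Lipc, and for Cd36, which was higher. They were taken from RefSeq (GRCm38.p6), cover 250 bases before to 50 bases after an annotated start site and are written 5′ to 3′ on the strand of the gene, 300 bases each. Capitals mark a nuclear receptor half-site (AGGTCA, or TGACCT on the other strand), a TATA box (TATAAA) and a CCAAT box (CCAAT, or ATTGG on the other strand). In Fabp1, capitals also mark a DR1 element, a direct repeat of relaxed half-sites 1 base apart that was searched on both strands and overlaps a half-site. The Fabp1 window lies at chr6:71199629-71199928 (plus strand), that of Slc27a2 at chr2:126552774-126553073 (plus strand), that of Lipc at chr9:70952172-70952471 (minus strand) and that of Cd36 at chr5:17835847-17836146 (minus strand). The windows of Slc27a2 and Cd36 lie inside the annotated genes, whose 5′ ends are at 126552407 and 17888801. Both therefore belong to an internal start site.
Fabp1: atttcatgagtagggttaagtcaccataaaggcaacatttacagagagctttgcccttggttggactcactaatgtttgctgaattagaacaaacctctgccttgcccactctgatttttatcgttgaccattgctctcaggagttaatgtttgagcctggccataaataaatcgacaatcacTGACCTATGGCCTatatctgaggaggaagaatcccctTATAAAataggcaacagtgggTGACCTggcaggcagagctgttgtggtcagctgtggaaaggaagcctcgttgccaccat
Slc27a2: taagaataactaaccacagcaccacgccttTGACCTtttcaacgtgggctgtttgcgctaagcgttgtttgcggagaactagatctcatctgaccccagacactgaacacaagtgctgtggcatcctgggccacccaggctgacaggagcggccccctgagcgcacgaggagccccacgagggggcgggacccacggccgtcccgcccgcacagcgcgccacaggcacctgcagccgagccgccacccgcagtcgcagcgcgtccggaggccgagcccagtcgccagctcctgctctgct
Lipc: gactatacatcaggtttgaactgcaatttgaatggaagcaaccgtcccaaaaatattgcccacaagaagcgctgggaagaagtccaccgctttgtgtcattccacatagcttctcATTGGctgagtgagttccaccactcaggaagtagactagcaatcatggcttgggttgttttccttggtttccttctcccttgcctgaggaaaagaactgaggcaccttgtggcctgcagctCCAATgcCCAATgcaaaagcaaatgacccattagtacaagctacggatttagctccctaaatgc
Cd36: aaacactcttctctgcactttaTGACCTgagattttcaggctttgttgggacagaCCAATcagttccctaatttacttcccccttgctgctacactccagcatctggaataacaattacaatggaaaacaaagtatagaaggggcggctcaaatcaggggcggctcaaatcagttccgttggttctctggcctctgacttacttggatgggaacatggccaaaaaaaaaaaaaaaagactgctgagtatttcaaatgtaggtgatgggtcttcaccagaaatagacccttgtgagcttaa
Fabp1 had a TATA box that began 30 bases before the start site, half-sites at -67 and -9 and the direct repeat at -67. Slc27a2 had 1 half-site at -220, and Cd36 had 1 at -228 with a CCAAT box at -195. In the Lipc window only CCAAT boxes were found, at -135, -14 and -7, while the window of a second annotated Lipc start, at chr9:70934759-70935058 and not printed, held half-sites at -88 and -76 and a CCAAT box at -177. Of all 32851 mouse promoters of this length, 16.26% held the half-site, 13.62% the TATA box, 37.41% the CCAAT box and 0.38% the direct repeat. These matches describe the letters only and are not evidence of binding. An E-box (CACGTG), held by 7.15% of promoters, was found in none of the 7 windows of the 6 genes with an entry (Cd36, Fabp1, Fabp2, Slc27a2, Slc27a4 and Lipc).

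Counts on genes ranged from 15661381 to 36224054 per mouse. In 8 libraries (3 chow, 4 WTD, 1 WTD with atorvastatin) over 20% of the weakly expressed genes, at 1 to 2 CPM (counts relative to the library total) in their group, had no count, and results that change without these libraries are named below. The 7 hepatocyte markers found in the table (of 8, Tf not being found by this symbol) summed to between 51010 and 162000 CPM per mouse, and Alb and the other hepatocyte genes were thus abundant in every library. The following features also touched the genes described here. Chow mouse 1 had adipocyte markers at 15.2 CPM in sum, as compared to 0 to 0.890 CPM in the other 9 chow mice. WTD mouse 15 had the highest Cd36, Fabp1, Fabp2, Slc27a2 and Lipc and the lowest Lpl and Fabp4 of its group. The 5 atorvastatin mice numbered 1, 2, 3, 4 and 7 had the lowest scores on the first principal component of that group. This component was computed on the other genes above a minimum mean level and held 34.2% of their variance.

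In WTD-fed mice, 3 of the 8 genes were higher than in chow-fed mice (Lpl, Fabp4 and Cd36) and 3 were lower (Fabp1, Slc27a2 and Lipc) at an adjusted p under 0.01, the threshold used throughout for group differences (edgeR quasi-likelihood test, Benjamini-Hochberg over 15574 genes). Over all genes tested, 17.5% were higher and 16% lower. Of the 8 genes, Lpl was the one whose groups did not overlap, which was the case for 5.83% of all genes. With atorvastatin, Lpl and Fabp4 were lower than in WTD-fed mice without treatment, against 2.26% of all genes. None of the 8 was called higher by edgeR, against 4.84% of all genes, and none by DESeq2. However, 3 (Fabp1, Slc27a2 and Lipc) were higher at an unadjusted p under 0.05 with either tool. Limma-voom with sample quality weights called these 3. Shares of all genes are given for edgeR only. As compared to chow, mice on WTD with atorvastatin had 2 genes higher (Cd36 and Lpl) and 3 lower (Fabp1, Slc27a2 and Lipc), against 14.2% and 10.7% of all genes. The median log2 fold change of the 8 genes was 0.19 for WTD versus chow, 0.06 for atorvastatin versus WTD and 0.17 for atorvastatin versus chow, as compared to 0.03, 0.0016 and 0.04 over all tested genes. These comparisons share mice and are not independent of each other.

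**Figure D1:**
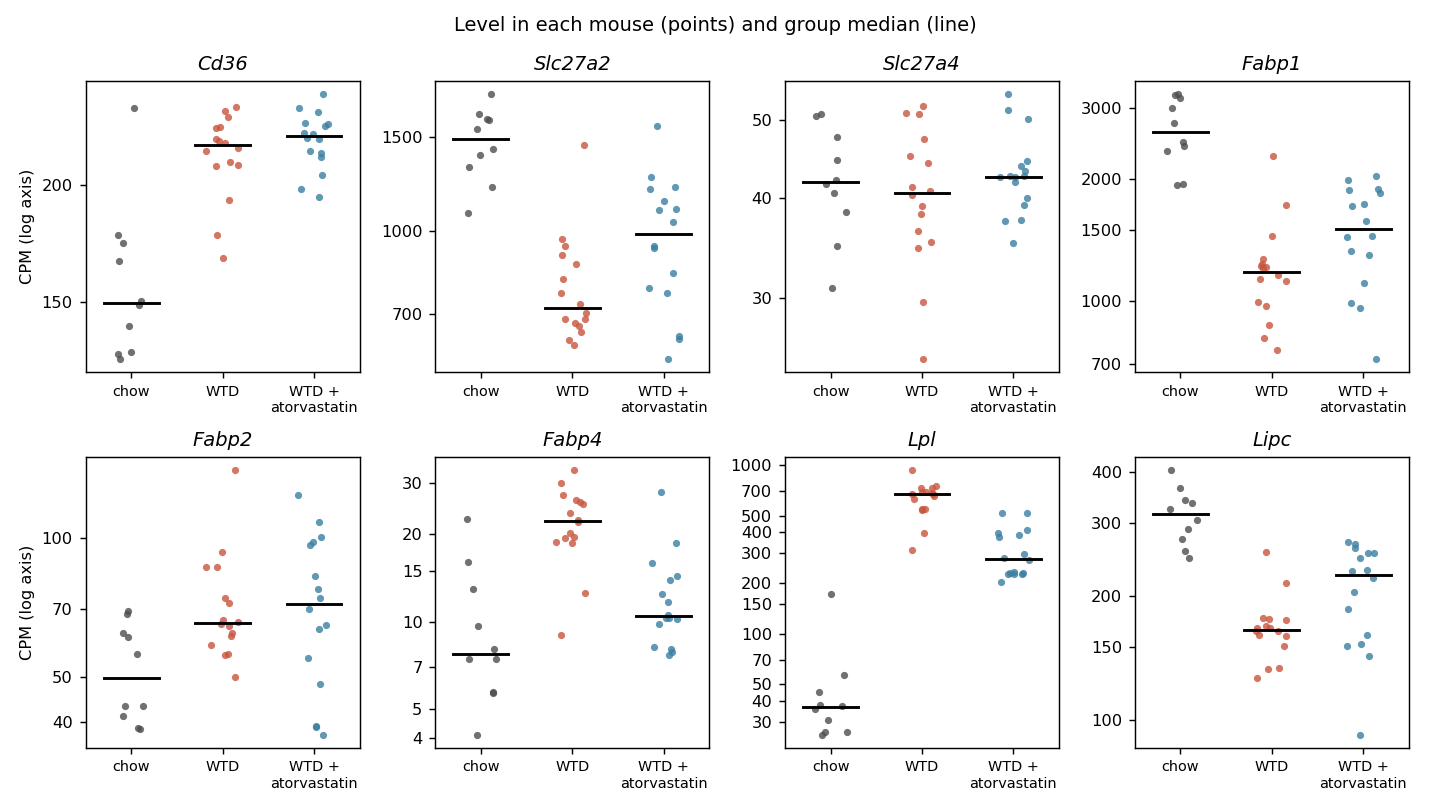
Level of each of the 8 genes in CPM on a log axis, with 1 point per mouse (10 chow, 16 WTD, 16 WTD with atorvastatin) and a line at the group median. Lpl of all WTD mice lies above that of all chow mice, while Slc27a4 lies between 25.2 and 53.8 CPM in the 42 mice.

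Cd36 (ENSMUSG00000002944.15, chr5:17781690-17888801, minus strand, GRCm38) encodes the fatty acid translocase. Its level ranged from 131 to 241 CPM with a median of 149.7 in chow-fed mice, from 167 to 242 with a median of 220.2 in WTD-fed mice and from 194 to 249.5 with a median of 225 in mice on WTD with atorvastatin. Every mouse of both WTD groups was above the chow median, but chow mouse 4, at 241 CPM, reached the top of the WTD range, and chow mice 2 (173.3 CPM) and 5 (176.9 CPM) also lay above the lowest WTD mouse. WTD feeding raised Cd36 1.35-fold (log2 fold change 0.43, SE 0.07, edgeR adjusted p = 2.83e-06), and without chow mouse 4 the log2 fold change was 0.52 (adjusted p = 4.99e-09). Cd36 did not differ detectably between the WTD groups, with a log2 difference of 0.05 and a 95% interval from -0.08 to 0.18 (edgeR adjusted p = 0.719). It was the gene with the least spread in mice on WTD, with a coefficient of variation of 9.81% without and 6.86% with atorvastatin, as compared to 21.0% on chow. Against chow, Cd36 was 1.40-fold higher with atorvastatin (log2 fold change 0.48, SE 0.07, adjusted p = 6.11e-07).

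Slc27a2 (ENSMUSG00000027359.16, chr2:126552407-126588243, plus strand) encodes FATP2, the major acyl-CoA synthetase-type transporter of liver and kidney. Levels were 1079 to 1803 CPM (median 1489) on chow, 613 to 1448 CPM (median 718) on WTD and 577 to 1572 CPM (median 987) on WTD with atorvastatin. Below the lowest chow mouse were 15 of 16 WTD mice, all except WTD mouse 15, and 9 of 16 atorvastatin mice. Slc27a2 was 1.84-fold lower on WTD than on chow (log2 fold change -0.88, SE 0.13, edgeR adjusted p = 1.55e-07). With atorvastatin it was 1.23-fold above WTD, a difference that was not called (log2 fold change 0.30, SE 0.12, adjusted p = 0.076). This call depended on 1 mouse, since without WTD mouse 15 the log2 fold change was 0.38 with an edgeR adjusted p of 0.00682. Against chow it was 1.495-fold lower with atorvastatin (log2 fold change -0.58, SE 0.13, adjusted p = 0.000342). A noncoding gene on the opposite strand, Gm26697, overlaps 419 exon bases of Slc27a2 and had 2371 counts over the 42 mice as compared to 896575 for Slc27a2.

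Slc27a4 (ENSMUSG00000059316.2, chr2:29802634-29817522, plus strand) encodes FATP4, which is best known from intestine and skin. Its range was 30.9 to 50.9 CPM (median 41.85) on chow, 25.2 to 52.1 CPM (median 40.55) on WTD and 35.1 to 53.8 CPM (median 42.5) on WTD with atorvastatin, so that the 3 groups overlapped over most of their range. No difference was detected, with log2 fold changes of -0.05 (95% interval -0.24 to 0.13) for WTD versus chow, 0.08 (-0.08 to 0.24) for atorvastatin versus WTD and 0.03 (-0.16 to 0.21) for atorvastatin versus chow. Per mouse and per kilobase of principal transcript, Slc27a2 exceeded Slc27a4 by a median of 46.4 times in chow-fed, 25.7 times in WTD-fed and 34.1 times in treated mice.

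Fabp1 (ENSMUSG00000054422.7, chr6:71199827-71205023, plus strand), the liver fatty acid binding protein, had the highest level per kilobase of the 8 genes in all groups. It ranged from 1929 to 3237 CPM (median 2608) on chow, from 757 to 2283 CPM (median 1183) on WTD and from 721 to 2037 CPM (median 1509) on WTD with atorvastatin. Below the lowest chow mouse were 15 of 16 WTD mice, the exception again being mouse 15, and 14 of 16 atorvastatin mice. WTD lowered Fabp1 2.18-fold (log2 fold change -1.13, SE 0.15, edgeR adjusted p = 1.69e-08). With atorvastatin Fabp1 was 1.23-fold above WTD without passing the threshold (log2 fold change 0.30, SE 0.13, adjusted p = 0.132), and 12 of 16 treated mice were above the WTD median. Limma-voom with sample quality weights gave 0.57 on the log2 scale for this difference (adjusted p = 0.000134). Against chow it was 1.77-fold lower (log2 fold change -0.82, SE 0.15, adjusted p = 1.57e-05).

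Fabp2 (ENSMUSG00000023057.5, chr3:122895072-122899506, plus strand), the intestinal form, was measured at 38.6 to 69.5 CPM (median 49.8) on chow, 50.1 to 139.9 CPM (median 65.4) on WTD and 37.6 to 123.7 CPM (median 72.1) on WTD with atorvastatin. All 16 WTD mice were above the chow median and 6 were above the highest chow mouse. The difference did not pass the threshold (1.38-fold, log2 0.47, SE 0.18, edgeR adjusted p = 0.027), while DESeq2 gave 0.50 on the log2 scale and an adjusted p of 0.00793. Atorvastatin versus WTD gave a log2 difference of 0.02 (95% interval -0.27 to 0.32), whose sign turned under other scalings. Atorvastatin versus chow gave 0.49 (SE 0.18, adjusted p = 0.0252). Limma-voom called the latter difference (0.56, adjusted p = 0.00463). Of the 6 enterocyte markers, Slc5a1 rose on WTD (log2 fold change 2.15, edgeR adjusted p = 2.13e-07), Vil1 was not called (1.87, adjusted p = 0.0244), Lct and Rbp2 were too low to be tested, and Sis and Alpi were listed at 0 in all mice, and their part in the Fabp2 values was not tested.

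Fabp4 (ENSMUSG00000062515.3, chr3:10204088-10208576, minus strand), the adipocyte and macrophage form, had few reads, with 87 to 967 counts per mouse. It ranged from 4.10 to 22.6 CPM (median 7.78) on chow, from 9.00 to 33.2 CPM (median 22.2) on WTD and from 7.66 to 27.9 CPM (median 10.45) on WTD with atorvastatin. All WTD mice exceeded the chow median, and 15 of 16 atorvastatin mice were below the WTD median, although the ranges of all groups overlapped. WTD raised Fabp4 2.22-fold over chow (log2 fold change 1.15, SE 0.22, edgeR adjusted p = 2.74e-05). Chow mouse 1, with its adipocyte markers, had the highest Fabp4 of the chow group, and without it the log2 fold change was 1.37 (adjusted p = 5.73e-07). Atorvastatin lowered Fabp4 1.78-fold as compared to WTD (log2 fold change -0.83, SE 0.19, adjusted p = 0.00151). Without the 8 libraries that missed weakly expressed genes this call was lost (log2 fold change -0.71, SE 0.21, edgeR adjusted p = 0.0224). Against chow, the atorvastatin group gave 0.32 (95% interval -0.11 to 0.74, adjusted p = 0.275), which became 0.53 without chow mouse 1 (adjusted p = 0.0416) and 0.19 without atorvastatin mouse 7 (adjusted p = 0.518).

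Lpl (ENSMUSG00000015568.16, chr8:68880491-68907448, plus strand), lipoprotein lipase, showed the largest difference of the 8 genes. Levels were 25.2 to 171 CPM (median 36.5) on chow, 313 to 935 CPM (median 674) on WTD and 204 to 519 CPM (median 278.5) on WTD with atorvastatin. All mice of both WTD groups were above all chow mice, and 10 of 16 atorvastatin mice were below the lowest WTD mouse. Lpl was 13.0-fold higher on WTD than on chow (log2 fold change 3.70, SE 0.28, edgeR adjusted p = 2.66e-14). In chow mouse 1 Lpl was 171 CPM, as compared to at most 57.1 CPM in the other chow mice, and without this mouse the log2 fold change was 4.16 (SE 0.21, adjusted p = 3.67e-20). Its adipocyte marker sum of 15.2 CPM stood beside this level, and its part in the result was not tested.

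With atorvastatin Lpl was 2.03-fold lower than in the WTD group (log2 fold change -1.02, SE 0.21, edgeR adjusted p = 0.000624), and every treated mouse was below the WTD median. No gene among the 8 had non-overlapping ranges between the WTD groups, which 0.00642% of all genes had. Lpl remained 6.40-fold above chow in treated mice (log2 fold change 2.68, SE 0.26, adjusted p = 9.04e-11), with ranges that did not overlap, as for 4.37% of all genes.

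Lipc (ENSMUSG00000032207.10, chr9:70798128-70952226, minus strand), hepatic lipase, changed in the other direction. It ranged from 248 to 405 CPM (median 316) on chow, from 126 to 256 CPM (median 165) on WTD and from 91.9 to 270.1 CPM (median 225) on WTD with atorvastatin. All WTD mice except mouse 15 were below the lowest chow mouse, and 11 of 16 atorvastatin mice were too. WTD feeding lowered Lipc 1.87-fold (log2 fold change -0.91, SE 0.12, edgeR adjusted p = 1.58e-08). Treated mice had 1.24-fold more Lipc than WTD-fed mice without passing the threshold (log2 fold change 0.31, SE 0.11, adjusted p = 0.0503). Atorvastatin mouse 7, with the lowest value, decided this call, since without it the log2 fold change was 0.36 and the edgeR adjusted p 0.00547. As compared to chow, Lipc was 1.52-fold lower in treated mice (log2 fold change -0.60, SE 0.12, adjusted p = 7.82e-05).

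**Figure D2:**
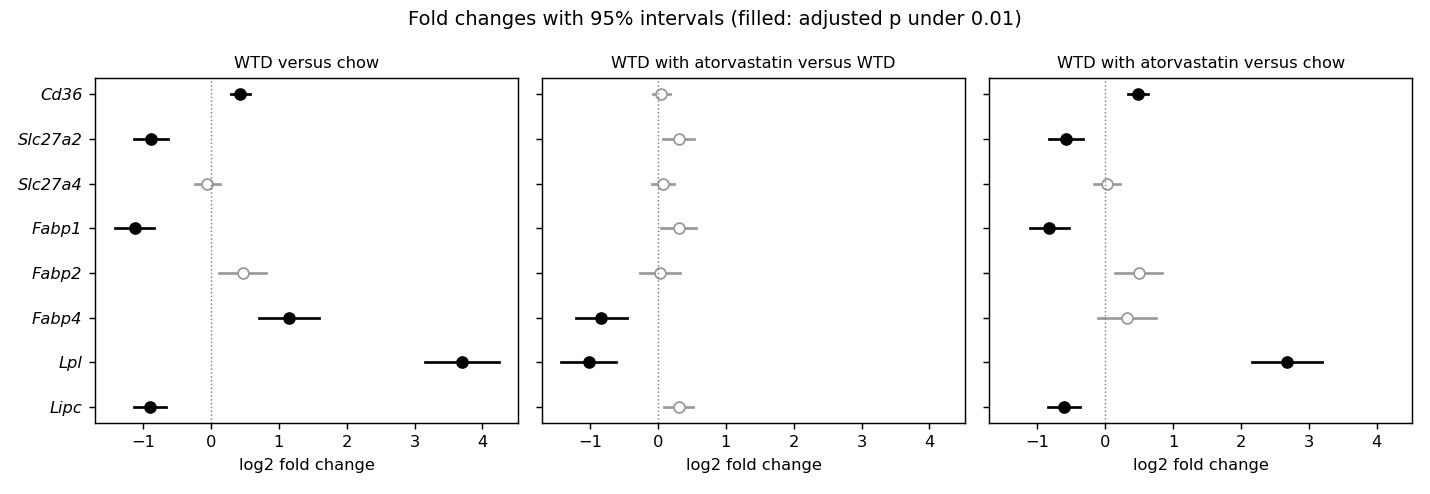
Log2 fold change of each gene with its 95% interval in the 3 comparisons, on a common axis, with filled points where the adjusted p was under 0.01. For WTD versus chow 6 points are filled, for WTD with atorvastatin versus WTD 2 and for WTD with atorvastatin versus chow 5.

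Within a mouse, the balance of the lipases differed between diets. Per kilobase of principal transcript, the ratio of Lpl to Lipc was 0.0331 to 0.237 (median 0.0518) on chow, 0.57 to 2.66 (median 1.83) on WTD and 0.392 to 2.63 (median 0.492) on WTD with atorvastatin. Lpl exceeded Lipc in 0 of 10 chow mice, 15 of 16 WTD mice and 5 of 16 atorvastatin mice. These counts depend on the length used, since with the length of all annotated exons Lpl exceeded Lipc in 3 WTD mice and 1 atorvastatin mouse, and with the coding length in 16 WTD mice and 13 atorvastatin mice. The ratio of Fabp4 to Fabp1 by principal transcript had a median of 0.00216 in the chow group, a higher one of 0.0118 in the WTD group and 0.00442 in treated mice. Fabp4 exceeded Fabp1 in 0 mice of each group.

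**Figure D3:**
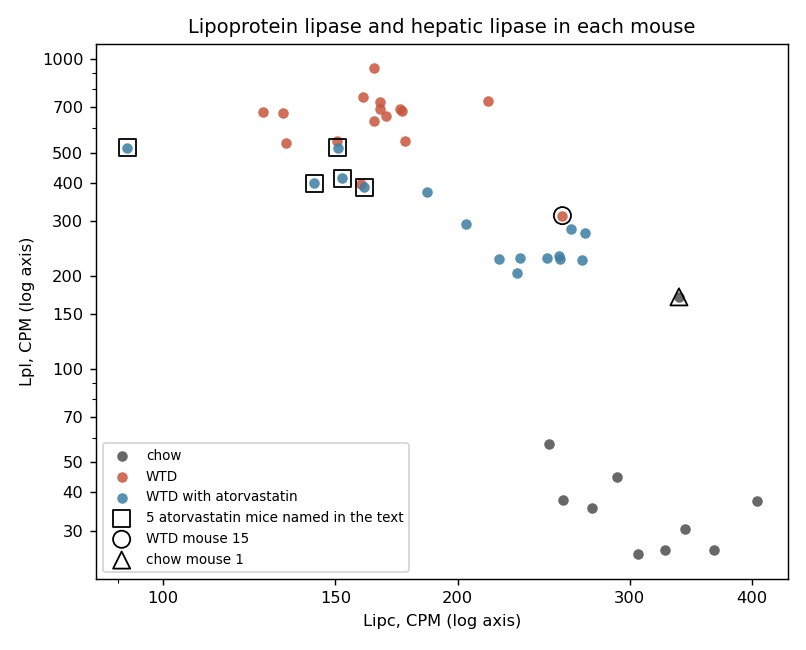
Lpl against Lipc in each of the 42 mice, in CPM on log axes, with the mice that stood apart outlined. Chow mice sit at high Lipc and low Lpl, WTD mice at low Lipc and high Lpl, and 11 atorvastatin mice between them, while the 5 outlined atorvastatin mice lie among or near the WTD mice.

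Per kilobase of annotated exon, the order on chow was Fabp1 (4790 CPM per kilobase), Slc27a2 (391), Lipc (146.5), Fabp2 (54.2), Cd36 (44.4), Slc27a4 (9.56), Lpl (4.69) and Fabp4 (2.22). Neighbours did not separate for Fabp2 and Cd36, Slc27a4 and Lpl, or Lpl and Fabp4, whose ranges over mice overlapped. On WTD, Lpl stood at 60.8 CPM per kilobase, in the 5th place, and its range overlapped those of Fabp2 and Cd36. On WTD with atorvastatin, Lpl was in the 6th place at 30.0 CPM per kilobase, with a range below that of Cd36 and above that of Slc27a4. The annotated exons of Lpl (10478 bases) and Fabp4 (4489 bases) are longer than their principal transcripts (4115 and 896 bases). By the latter length Lpl reached 11.9 CPM per kilobase in the chow group, 155 in the WTD group and 76.4 in the atorvastatin group and was in the 3rd place on WTD, and Slc27a4 had the lowest mean of the 8 in all groups.

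**Figure D4:**
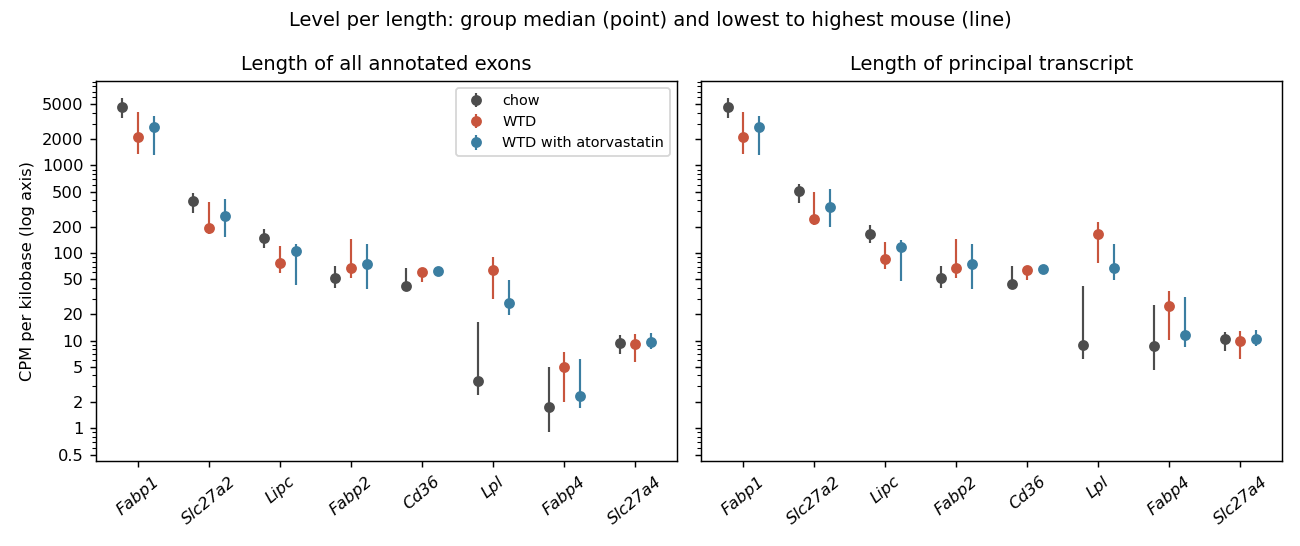
CPM per kilobase on a log axis for each gene and group, with the group median as point and the lowest to the highest mouse as line, by the length of all annotated exons (left) and of the principal transcript (right). Fabp1 is at the top in all groups by both lengths, and the place of Lpl and Fabp4 depends on the length.

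The atorvastatin mice differed from each other in these genes. In mice 1, 2, 3, 4 and 7, chosen by a component from which the 8 genes had been left out, Lpl was 386 to 519 CPM, while it was 204 to 372 CPM in the other 11 mice. Lipc was 91.9 to 161 CPM as compared to 186 to 270.1 CPM, and Fabp1 was 721 to 1298 CPM as compared to 1333 to 2037 CPM. Fabp2 (37.6 to 55.0 as compared to 63.5 to 123.7 CPM) and Slc27a2 (577 to 781 as compared to 834 to 1572 CPM) were also apart. Cd36, Slc27a4 and Fabp4 overlapped between both sets of mice. Hepatocyte markers summed to 63250 to 85030 CPM in the 5 mice and 86180 to 129400 CPM in the other 11, and macrophage markers to 1374 to 2028 CPM as compared to 1052 to 1583 CPM. The marker genes were not left out of the component, whose sign was set so that low scores went with low hepatocyte markers. The split of both marker sums was thus in part built into the choice of mice. Leaving out the 8 genes does not make this choice independent of them. Genes that vary with those in the component can still differ between its ends. The labels do not divide the treated mice and give neither the cage nor the drug intake of single mice, so that every value of the atorvastatin group, its differences from WTD and chow included, averages over both sets. These ranges are given without a test, and the part of the markers in them was not tested. The share of all genes with ranges apart in this split is not given here, so the separation is not read as particular to these genes.

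Variation among mice of 1 group was compared by Pearson r of log2 CPM for the 28 pairs of genes, with permutation p values adjusted over 84 relations in 3 groups. On chow, no pair was called at an adjusted p under 0.05 by Pearson r or by Spearman rho, and 2 pairs had an unadjusted p under 0.05. On WTD 5 pairs were called, all positive and all among Fabp1, Fabp2, Slc27a2 and Lipc. They rested largely on WTD mouse 15, without which the 1 pair called was Fabp1 with Slc27a2. For this pair r was 0.84 and rho 0.76 over 16 mice (permutation p = 6e-05 and 0.001, adjusted p = 0.0017 and 0.025), and r was 0.67 without the 2 mice farthest from the median of Fabp1. Without mouse 15, r was 0.71 and rho 0.71 over 15 mice (permutation p = 0.0028 and 0.0043, adjusted p = 0.024 and 0.03), and r was 0.54 without the 2 farthest mice.

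On WTD with atorvastatin 14 pairs were called, 7 positive and 7 negative. The negative pairs joined Lpl or Fabp4 with Fabp1, Fabp2, Slc27a2 or Lipc. Since the 5 mice named above lay apart from the others in these genes, r is not given over all 16 mice. Among the other 11 mice, no pair was called by Pearson r or by Spearman rho and 1 had an unadjusted p under 0.05. The relation of Lpl to Lipc had r = -0.53 and rho = -0.25 in them (permutation p = 0.09 and 0.47, adjusted p = 0.44 and 0.92), and r was 0.60 without the 2 mice farthest from the median of Lpl.

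Over all 42 mice, the genes most like each of the 8 in their deviations from the group mean were named as a description. For Slc27a2 they were Nr1i3 (Pearson r = 0.90) and Cyp2e1 (0.89), and for Lipc BC025446 (0.88) and Cdo1 (0.88). For Fabp1 they were Acot3 (0.83) and Apoc3 (0.82), and for Fabp2 Il1rap (0.81) and Hsd17b11 (0.80). Lpl was most like Tpm1 (0.83) and Oxct1 (0.79), and Fabp4 was most like Serpine2 (0.70) and the same Tpm1 (0.69). Cd36 (Gdi2, 0.63, and Vps4b, 0.62) and Slc27a4 (Ap2a2, 0.65, and Loxl4, 0.62) had the weakest likeness. These points share libraries and the mice that stood apart.

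Markers of cell types moved with the diets as well, and in bulk tissue fewer cells of a type and less RNA per cell cannot be told apart. All 7 hepatocyte markers fell on WTD, with a median log2 fold change of -0.90, and their sum ranged from 112100 to 162000 CPM on chow, 51010 to 106400 on WTD and 63250 to 129400 on WTD with atorvastatin. This stands beside the changes of -1.13, -0.88 and -0.91 in Fabp1, Slc27a2 and Lipc. With atorvastatin 4 of the 7 markers rose against WTD (median 0.47). Of the 9 macrophage markers tested, 9 rose on WTD (median log2 fold change 2.56) and 6 fell with atorvastatin (median -0.44). The tenth, Itgam, was listed at 0 in all mice. Their sum was 255.5 to 365 CPM on chow, 1283 to 2833 on WTD and 1052 to 2028 on WTD with atorvastatin. All 6 markers of lipid-associated macrophages rose on WTD (median 3.48; sum 80.3 to 125 CPM on chow and 351 to 1212 on WTD), and 3 fell with atorvastatin (sum 282 to 810.3). These stand beside Lpl and Fabp4, and the part of either cell type in the results was not tested.

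Other lists were as follows. Sinusoidal endothelium had 1 marker higher and 3 lower of 6 on WTD (sum 278 to 387 CPM on chow, 211 to 332 on WTD, 202 to 340.0 with atorvastatin), and other endothelium had 2 of 6 higher (125 to 204, 157.5 to 289.5 and 188 to 249). Kupffer cell markers had 3 of 6 higher (a median of 333.5 CPM on chow, 903 to 2376 CPM on WTD and 843 to 1489 CPM with atorvastatin), stellate cells and fibroblasts 5 of 8 (362 to 618, 1015 to 2174 and 933 to 2043 CPM) and cholangiocytes 6 of 6 (16.6 to 37.5, 28.6 to 115 and 33.2 to 97.2 CPM). Markers of T and B lymphocytes summed to 6.56 to 53.0, 8.81 to 28.4 and 9.40 to 18.1 CPM. Adipocyte markers, which bear on Fabp4 and Lpl, summed to at most 1.69 CPM in any mouse on WTD and 1.39 CPM with atorvastatin, with Lep listed at 0 in all mice. The only one tested, Cidea, was at 0 in all chow mice and at most 0.944 CPM on WTD and 1.07 CPM with atorvastatin, and was called higher than on chow in both groups (edgeR adjusted p = 0.000392 and 0.000225). Enterocyte markers, listed because of Fabp2, summed to 0 to 7.497 CPM on chow, 10.9 to 28.5 on WTD and 8.13 to 30.4 with atorvastatin. Of the 2 tested, Slc5a1 rose on WTD, and it held most of the sum there (median 17.68 CPM beside 19.97 CPM). Sis, Lct, Alpi and Rbp2 had a median of 0 in all groups. Pancreatic acinar markers were at 10.1 to 22.4, 2.15 to 15.8 and 3.95 to 11.6 CPM, with Cpa1, Cela2a and Prss2 at 0.

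Within groups, relations of the 8 genes to the summed markers of macrophages, sinusoidal endothelium and hepatocytes were tested in the same way, with p values adjusted over 72 relations. The sums weigh abundant markers most. On WTD, Alb held most of the hepatocyte sum (median 48530 CPM beside 67190 CPM). Lyz2 was the largest part of the macrophage sum there (median 1094 CPM beside 2273 CPM). On chow no relation was called by either coefficient, and 2 had an unadjusted p under 0.05. On WTD 8 of 24 were called by Pearson r and 3 by Spearman rho. Without WTD mouse 15, Pearson r called 1, Lpl with hepatocyte markers, and Spearman rho called 3, this one, Lpl with macrophage markers and Fabp1 with hepatocyte markers. The last had r = 0.60 and rho = 0.73 over 15 mice (permutation p = 0.02 and 0.0023, adjusted p = 0.077 and 0.014; r = 0.60 without the 2 mice farthest from the median of Fabp1). Lpl with hepatocyte markers had r = -0.88 and rho = -0.72 over 16 mice (permutation p = 2e-05 and 0.0024, adjusted p = 0.00048 and 0.013; r = -0.78 without the 2 mice farthest from the median of Lpl). Without mouse 15 it had r = -0.74 and rho = -0.66 (permutation p = 0.0031 and 0.0087, adjusted p = 0.016 and 0.035; r = -0.58 without the 2 farthest). Lpl with macrophage markers had r = 0.76 and rho = 0.71 (permutation p = 0.0018 and 0.0031, adjusted p = 0.0089 and 0.014; r = 0.80 without the 2 farthest), and without mouse 15 r was 0.48 and rho 0.64 (permutation p = 0.067 and 0.011, adjusted p = 0.18 and 0.041).

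On WTD with atorvastatin 17 of 24 relations were called over all 16 mice, whereas among the 11 mice without the 5 named above Pearson r called 2, both of Lipc, and Spearman rho none. In these 11 mice Lipc with hepatocyte markers had r = 0.82 and rho = 0.81 (permutation p = 0.0022 and 0.0038, adjusted p = 0.033 and 0.068), and r was 0.47 without the 2 mice farthest from the median of Lipc. Lipc with macrophage markers had r = -0.80 and rho = -0.66 (permutation p = 0.0035 and 0.03, adjusted p = 0.041 and 0.18), and r was -0.34 without the 2 farthest, so that both rested on those mice. Lpl with macrophage markers had r = 0.66 and rho = 0.67 in the 11 mice (permutation p = 0.032 and 0.028, adjusted p = 0.13 and 0.18), and r was -0.10 without the 2 mice farthest from the median of Lpl.

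**Figure D5:**
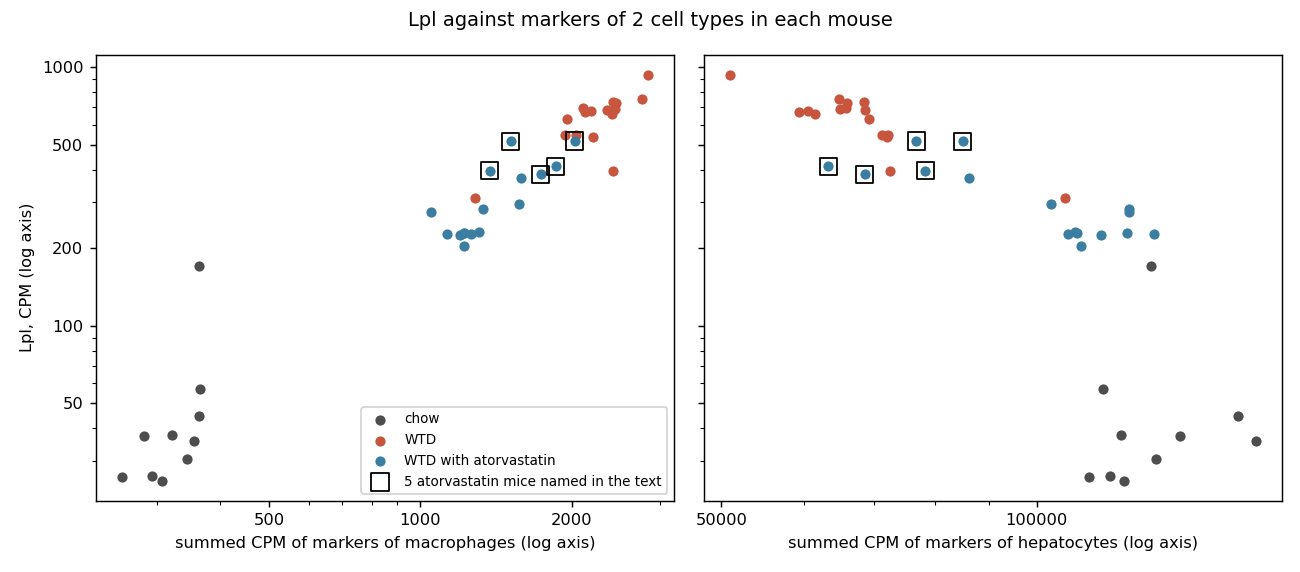
Lpl in CPM against the summed CPM of 9 expressed macrophage markers and Itgam (left) and of 7 hepatocyte markers (right) in each mouse, all axes logarithmic. The macrophage sum of all chow mice is at most 365 CPM and that of all WTD-fed mice at least 1052 CPM, and the outlined 5 atorvastatin mice lie at higher Lpl than the other 11.

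Relatives and partners of the 8 genes were counted from lists drawn up by function. Of the 4 other Slc27 genes, all tested, Slc27a5 (FATP5, the bile acid and fatty acid CoA ligase of hepatocytes) fell on WTD (log2 fold change -0.94, SE 0.14, edgeR adjusted p = 2.49e-07) and Slc27a6 rose from 0.206 to 1.34 CPM (log2 fold change 2.65, SE 0.78, adjusted p = 0.00456). With atorvastatin Slc27a5 rose against WTD (0.57, SE 0.13, adjusted p = 0.00123). The 6 tested Slc27 genes had a median log2 fold change of -0.33 for WTD versus chow, as compared to 0.03 over all genes.

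Of 8 other cytosolic binding proteins, 5 were tested, and on WTD 2 rose and 1 fell. Fabp7, the brain form, rose from 4.23 to 15.5 CPM (log2 fold change 1.89, SE 0.28, edgeR adjusted p = 2.73e-07). Fabp5, the epidermal form that macrophages also express, rose from 31.9 to 88.6 CPM (1.47, SE 0.24, adjusted p = 1.68e-06). Dbi, the acyl-CoA binding protein, fell from 434 to 266 CPM (-0.71, SE 0.10, adjusted p = 1.62e-08). Neither Fabp5 nor Fabp7 was called between the WTD groups, with log2 differences of 0.31 (SE 0.19, adjusted p = 0.359) and -0.10 (SE 0.23, adjusted p = 0.854).

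Of 5 long-chain acyl-CoA synthetases, which activate fatty acids after uptake, 4 were tested. On WTD Acsl1 fell (log2 fold change -1.003, SE 0.15, edgeR adjusted p = 2.63e-07) and Acsl4, which prefers arachidonic acid, rose (0.40, SE 0.12, adjusted p = 0.00582). With atorvastatin Acsl5 (0.57, SE 0.10, adjusted p = 0.000135) and Acsl1 (0.49, SE 0.13, adjusted p = 0.00911) were above WTD. Of 4 other membrane proteins linked to fatty acid uptake, Scarb1 (0.51, SE 0.10, adjusted p = 2.45e-05) and Cav1 (1.40, SE 0.39, adjusted p = 0.00257) rose on WTD. Got2, the mitochondrial aspartate aminotransferase also described at the plasma membrane, fell on WTD (-0.43, SE 0.08, adjusted p = 2.26e-05) and rose with atorvastatin (0.35, SE 0.07, adjusted p = 0.000755).

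Of the 6 other genes of the pancreatic lipase family, 1 was tested, endothelial lipase (Lipg), and it was not called (log2 fold change -0.75, SE 0.27, edgeR adjusted p = 0.0199 for WTD versus chow). Among 15 partners and regulators of the lipases, 14 were tested, of which 1 rose and 9 fell on WTD (median log2 fold change -0.65) and 3 rose with atorvastatin (median 0.18). Apoc3, an apolipoprotein that inhibits lipoprotein lipase, fell on WTD (-1.36, SE 0.12, adjusted p = 5.48e-14), as did Lmf1, a chaperone needed for the maturation of both lipases (-0.80, SE 0.09, adjusted p = 1.02e-10). Hspg2, a heparan sulfate proteoglycan, rose (0.88, SE 0.10, adjusted p = 4.14e-10). With atorvastatin, Sel1l (0.49, SE 0.08, adjusted p = 2.58e-05), which also takes part in the maturation of lipoprotein lipase, Lmf1 (0.29, SE 0.08, adjusted p = 0.00808) and Apoc3 (0.38, SE 0.10, adjusted p = 0.00855) were above WTD. Angptl4, an inhibitor of lipoprotein lipase named here after its values were seen, fell from 102 CPM on chow to 35.1 CPM on WTD (-1.53, SE 0.29, adjusted p = 2.39e-05) and was at 34.7 CPM with atorvastatin.

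Of 12 nuclear receptors and related regulators that act on these genes, all tested, 1 rose and 7 fell on WTD (median log2 fold change -0.40) and 2 rose with atorvastatin (median 0.25). Pparg rose (log2 fold change 0.65, SE 0.13, edgeR adjusted p = 2.59e-05). It was not called between the WTD groups (-0.23, SE 0.11, adjusted p = 0.182). The pregnane X receptor Nr1i2 fell (-0.44, SE 0.08, adjusted p = 4.23e-06). With atorvastatin Hnf4a was above WTD (0.33, SE 0.07, adjusted p = 0.000639). Ppara, whose targets include Fabp1 and which was named after its values were seen, fell on WTD (-0.62, SE 0.17, adjusted p = 0.00269) and was not called between the WTD groups (0.29, SE 0.15, adjusted p = 0.241).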

How the data were processed

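Liver RNA of 42 mice was sequenced from strand-specific, poly(A)-selected libraries as 150 bp read pairs. Per the methods and the submitters' processing notes, the authors trimmed reads with Trimmomatic, aligned them to GRCm38 (GENCODE vM19) by STAR 2.5 and used HTSeq 0.6.1p1 to assign them to genes. The deposited values are counts, whole numbers that are neither normalized nor filtered, and the strand and overlap options of the counting are not given in the sources used here. Of 257 protein-coding genes that lie inside another gene on the same strand without sharing exons, 256 had 0 counts, so that reads in introns may be included in a gene's count and levels per exon length are approximate. A 0 in all mice may thus come from the counting. For the markers listed at 0 and for Apoc2, also at 0, it is not read as absence of RNA. HTSeq summary lines were left out of totals and tests: reads outside genes were 2.00% to 2.78%, ambiguous reads 5.43% to 6.57% and reads aligned to several places 4.07% to 5.36%. No table column belonged to another sample (0 columns).

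The 8 genes and all gene lists were chosen with earlier results of these data known. Symbols, positions and lengths came from GENCODE vM21, in which 54409 of 54446 identifiers were found. Mice were grouped by the labels. The mice were group-housed, and since the labels name neither cage nor sequencing batch, none was fitted. No 2 libraries agreed within sampling noise. The filter on low values was filterByExpr, with 10 as minimum count and 15 as minimum total. Library sizes were adjusted by TMM, and edgeR 4.0.16 (R 4.3.3) was run with its robust quasi-likelihood test on the 3 groups in 1 fit, with Benjamini-Hochberg adjustment over 15574 genes and a threshold of 0.01. CPM use TMM-scaled library sizes, and log2 CPM a prior count of 2. Relations between mice used 100000 two-sided permutations and a threshold of 0.05. In simulated data for WTD versus chow with 15318 genes tested, 128 of 200 genes given a log2 change of 1 were called, and for atorvastatin versus WTD 51 of 100. Precision is limited by 10 and 16 mice per group, and intervals assume that the spread is shared by the groups.

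All 8 genes are named. From each list the up to 3 called genes with the smallest p in WTD versus chow and in atorvastatin versus WTD are named, and for each of the 8 genes the 2 tested genes with the largest r over 42 mice. The lists were the Slc27 family, cytosolic binding proteins, acyl-CoA synthetases, other uptake proteins, the pancreatic lipase family, partners of the lipases, nuclear receptors and markers of 12 cell types. The values of 1 listed gene that the rule names are not reported here. Alternatives were DESeq2 1.42.0, limma-voom (limma 3.58.1), RLE and upper-quartile scaling, other filters, thresholds and sample sets, other lengths and leaving out each mouse. Leaving out WTD mouse 15 or the 5 atorvastatin mice in the relations, and the principal transcript length, were chosen after seeing the data. Plots and permutations used Python 3.11.15, pandas 2.3.3, numpy 2.4.6, scipy 1.17.1 and matplotlib 3.10.9.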

Additional observations from a re-analysis of the deposited data

Results flagged for a closer look

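Dixon's criterion was applied in the chow group, the only group of at most 10 mice, and chance alone exceeds it in about 1 of 20 groups. Of the 8 genes, 2 had a mouse beyond it. Lpl was 170.9 CPM in chow mouse 1, a gap of 0.781 of the group's range, and the same mouse had the highest summed adipocyte markers of all 42 mice (15.2 CPM). Cd36 was 241.4 CPM in chow mouse 4, a gap of 0.582 of the range. Adipocyte markers were not the only other genes with a high value on chow. Des reached 191.8 CPM in the chow group (median 13.75) and Fabp3 71.08 CPM (median 0.0), both named after their values were seen. The chow mice that held these maxima are not identified here. The part of the adipocyte markers, Des or Fabp3 in the Lpl and Cd36 values was not tested.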

How the results depend on the processing

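For WTD versus chow, 6 to 7 of the 8 genes were called under each alternative except when a change of at least 1 on the log2 scale was also required, which left 3. For atorvastatin versus WTD the count of 2 became 5 with limma-voom with sample quality weights, 1 with a log2 fold change of at least 1 and 1 without the 8 libraries that missed weakly expressed genes. For atorvastatin versus chow the count of 5 became 1 with a log2 fold change of at least 1, and 6 with limma-voom or at an adjusted p under 0.05, Fabp2 being added in both. Leaving out 1 mouse at a time gave 6, 2 to 3 and 5 called genes. The share of all genes called is given for the main edgeR fit only. Counts under the alternatives therefore cannot be set against all genes. The genes called by edgeR kept their direction under all alternatives. Signs turned for 2 genes that were never called in the comparison concerned. Slc27a4 became 0.00059 with at least 10 counts in every mouse and 0.03003 without the 8 libraries (WTD versus chow), and -0.0071 with limma-voom and -0.01449 to 0.06114 when leaving out 1 mouse, negative without chow mouse 4 (atorvastatin versus chow). Fabp2 in atorvastatin versus WTD became -0.01943 with DESeq2, -0.02034 with RLE scaling, -0.0014 with upper-quartile scaling, -0.01709 with at least 10 counts in every mouse and -0.04271 to 0.1164 when leaving out 1 mouse, turning negative without WTD mouse 6 or atorvastatin mouse 8, 9, 12, 14 or 16 (-0.006108, -0.008899, -0.04271, -0.02199, -0.005888 and -0.01147).

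Of the member pairs, 19 of 84 were called, 14 by Spearman rho, 18 to 20 under other scalings or without the 8 libraries, 15 without WTD mouse 15 and 1 without the 5 atorvastatin mice. Of the marker relations, 25 of 72 were called, 20 by Spearman rho, 23 to 24 under other scalings or without the 8 libraries, 18 without WTD mouse 15 and 7 without the 5 mice, where fewer samples also lower what can be called. Depth limits Fabp4, with as few as 87 counts in a mouse. No paired analysis was possible because the mice of the groups are different animals and their labels share no replicate name.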
